A study of Mus musculus with 36 samples.

Results

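Cancer-associated fibroblasts and pericytes were followed through 10 of their marker genes in bulk RNA-seq of 36 subcutaneous mouse tumours. The genes were *Pdgfra*, *Pdgfrb*, *Fap*, *Acta2*, *Dcn*, *Lum*, *Pdpn*, *Thy1*, *Postn* and *Rgs5*, taken by name from the 37417 genes of the deposited count table. All 10 were found, and all 10 passed the filter of more than 1 CPM in no fewer than 4 libraries, as did 15217 genes in all. CPM is the gene's read count scaled to the sum of all reads assigned to genes in that library (reads per 1000000), so it can be compared between libraries but not between genes of different length.

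Per the labels, MC38 (a colon adenocarcinoma line) and PancO2 (a pancreatic adenocarcinoma line) grew in C57BL/6J mice and CT26 (a colon carcinoma line) in BALB/c mice. All hosts were wild type and 12 weeks old, and each received IgG, anti-CTLA4 or anti-PD-1 at 10 mg per kg. This gave 9 labelled groups of 4 tumours, taken at the end stage as whole tissue with no sorting of cells. Libraries are named here by their labelled model, antibody and mouse number.

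Fibroblasts build the collagen and proteoglycan matrix of a tumour, and pericytes wrap its capillaries. Both depend on platelet-derived growth factor (PDGF) signalling, pericytes chiefly through the receptor PDGFRβ, which answers PDGF-B made by endothelial cells. None of the 10 markers belongs to these cells alone, since tumour cell lines can express mesenchymal genes too. In whole tumours, fewer cells of a type and less RNA per cell cannot be told apart.

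The levels were read over 3 classes of 12 libraries, drawn from 2 genes outside the marker set. The H2-Ea-ps class held the libraries above 10 CPM of *H2-Ea-ps*, an MHC class II alpha-chain gene that BALB/c mice express and C57BL/6 mice do not. Inside it *H2-Ea-ps* lay between 32.8 and 134 CPM, and outside it the highest value was 0.0845 CPM. The Cp class held the libraries above 1000 CPM of *Cp*, which encodes ceruloplasmin, with 1389 to 2168 CPM inside and at most 611 CPM outside. The remaining 12 libraries formed the neither class.

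These classes cut across the labels. The labels of 16 of the 36 libraries went against the strain gene, since 8 labelled MC38 or PancO2 were in the H2-Ea-ps class and 8 labelled CT26 were not. Library labels are therefore given below as labels only. The H2-Ea-ps class held 4 libraries labelled CT26, 4 labelled MC38 and 4 labelled PancO2. The Cp class held 3, 4 and 5 libraries with those labels, and the neither class held 5, 4 and 3. Libraries had 7883106 to 41751023 assigned reads, with a median of 27968270. The shallowest, labelled PancO2 anti-PD-1 71, stood apart, with 15.7% mitochondrial reads against 2.80% to 4.35% in the other 35. It was in the H2-Ea-ps class, and leaving it out added no member to those that did not overlap between classes (below). Because the classes were drawn from measured levels, differences between them are described and not tested.

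The 10 markers did not move between classes as one set. Between the Cp and H2-Ea-ps classes 5 of 10 did not overlap, with *Pdgfra*, *Pdgfrb*, *Dcn* and *Lum* higher in the Cp class and *Pdpn* lower. Over all 15217 genes, 31.0% did not overlap between these classes, 18.9% higher and 12.0% lower. Between the neither and H2-Ea-ps classes 3 of 10 did not overlap, *Pdgfra*, *Pdgfrb* and *Dcn*, all higher in the neither class, against 26.2% of all genes (17% higher, 9.19% lower). Between the Cp and neither classes 3 of 10 did not overlap, *Dcn* and *Lum* higher in the Cp class and *Pdpn* lower, against 30.2% of all genes (14.6% higher, 15.5% lower). The last 2 counts were close to the background share. Without PancO2 anti-PD-1 71 the same members did not overlap, but the background was higher. It was then 39.3% of all genes between the Cp and H2-Ea-ps classes and 33.8% between the neither and H2-Ea-ps classes. Shares of all genes given below are those with all 36 libraries.

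**Figure D1:**
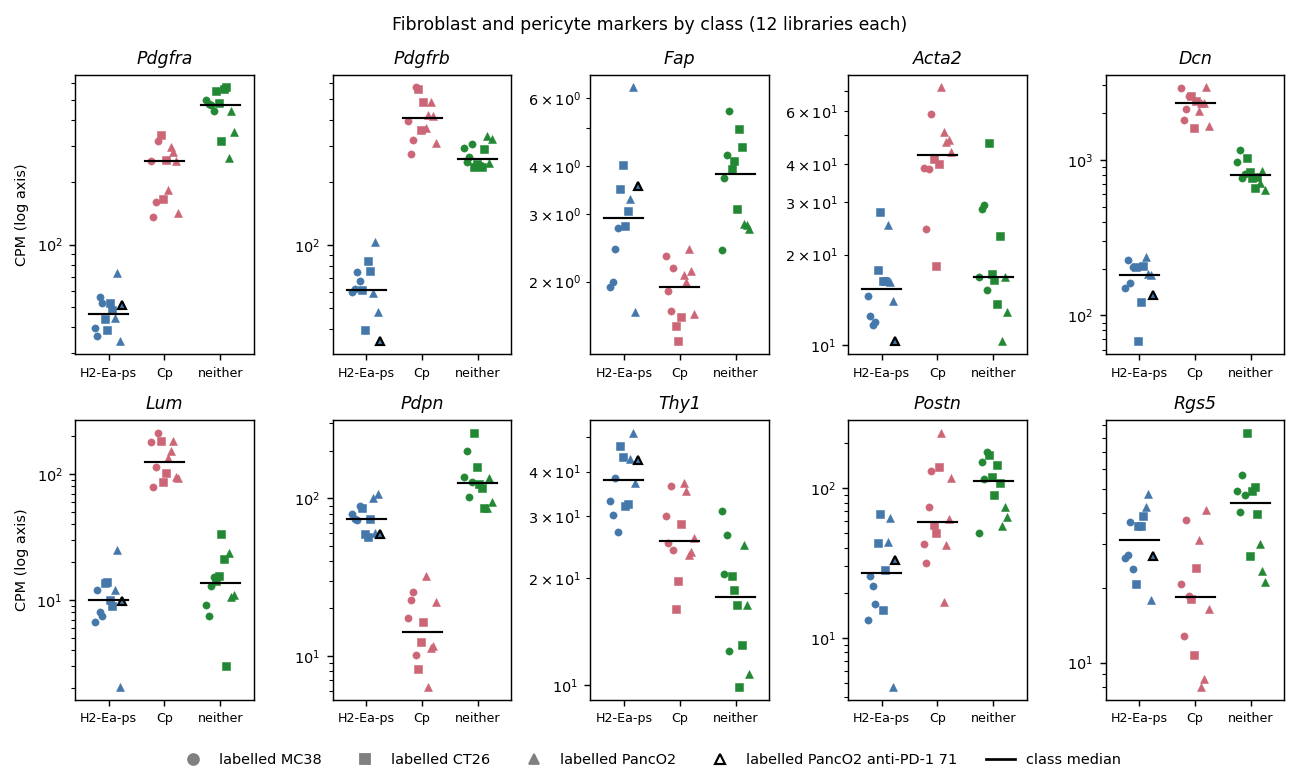
Level of each of the 10 markers in every library (CPM, log axis), by class, with 12 libraries in each class. Marker shape gives the labelled model, a black outline the library labelled PancO2 anti-PD-1 71 and the line the class median. *Dcn* separates all 3 classes, from a median of 183 CPM through 794 CPM to 2313 CPM, while *Rgs5* and *Postn* spread widely within each class.

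The PDGF receptors were low in the H2-Ea-ps class and had opposite orders in the other two classes. *Pdgfra*, the alpha receptor carried by most fibroblasts, ran from 34.2 to 72.6 CPM in the H2-Ea-ps class, with a median of 46.3 CPM. Its median was 252 CPM in the Cp class (136 to 336 CPM) and 472 CPM in the neither class (263 to 574 CPM). The H2-Ea-ps class thus lay wholly below both others, 5.43-fold below the Cp class and 10.2-fold below the neither class by medians, and the latter pair overlapped.

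*Pdgfrb*, the beta receptor of pericytes and many fibroblasts, had a median of 61.4 CPM in the H2-Ea-ps class (34.8 to 104 CPM). It reached 405 CPM in the Cp class (275 to 571 CPM) and 259 CPM in the neither class (236 to 332 CPM). Again the H2-Ea-ps class lay below both others without overlap, with the Cp median 6.61-fold higher. Here the Cp class had the higher median of the overlapping pair, 1.57-fold above the neither class, whereas for *Pdgfra* the neither class was 1.88-fold above the Cp class. *Pdgfrb* varied least in the neither class, with a coefficient of variation of 12.8%.

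Of the ligands of these receptors, *Pdgfa* and *Pdgfc* were higher in the Cp class than in both others. *Pdgfa* lay between 101 and 139 CPM there, above every library of the H2-Ea-ps class (31.8 to 74.5 CPM) and of the neither class (40.3 to 99.6 CPM). *Pdgfc*, whose product acts on the alpha receptor after cleavage, had a median of 72.7 CPM in the Cp class against 7.27 CPM in the H2-Ea-ps class and 14.8 CPM in the neither class, with no overlap. *Pdgfb* was below both other classes in the H2-Ea-ps class, with a median of 12.6 CPM against 35 and 32.2 CPM, its lowest value of 2.92 CPM being that of the library labelled PancO2 anti-PD-1 71. *Pdgfd*, the remaining ligand, overlapped in all 3 comparisons, with its lowest median, 1.41 CPM, in the Cp class and 1.84 and 1.92 CPM in the H2-Ea-ps and neither classes. In all, 3 of 4 ligands were higher in the Cp than in the H2-Ea-ps class with no overlap, against 18.9% of all genes.

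*Dcn* and *Lum* encode decorin and lumican, small leucine-rich proteoglycans that bind collagen fibrils, and lie next to each other on chromosome 10 (GRCm38 chr10:97479609-97518143 and chr10:97565128-97572703, both on the plus strand). *Dcn* had a median of 183 CPM in the H2-Ea-ps class (68.2 to 238 CPM), 794 CPM in the neither class (635 to 1154 CPM) and 2313 CPM in the Cp class (1598 to 2922 CPM). No pair of classes overlapped, and the Cp median was 12.7-fold that of the H2-Ea-ps class. It was the only member to separate all 3 classes.

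*Lum* was high in the Cp class alone, with a median of 124 CPM (78.5 to 212 CPM). Its medians of 9.98 CPM in the H2-Ea-ps class (2.05 to 25 CPM) and 13.6 CPM in the neither class (2.99 to 33.8 CPM) overlapped. The Cp median was 12.4-fold and 9.09-fold above them. *Lum* therefore did not follow its neighbour *Dcn* into the neither class, where *Dcn* was 4.35-fold above the H2-Ea-ps class and *Lum* 1.36-fold.

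Related proteoglycans did not share one order either. Of 9 genes listed, 7 were above 1 CPM in at least 4 libraries, and 3 were higher in the Cp than in the H2-Ea-ps class without overlap (18.9% of all genes), while none was lower (12.0%). *Prelp*, the prolargin gene, resembled *Lum*, with a median of 214 CPM in the Cp class (105 to 368 CPM) against 34.1 CPM in the H2-Ea-ps class and 9.69 CPM in the neither class. *Bgn*, which encodes biglycan, was highest in the neither class, at 1446 CPM (1192 to 1769 CPM), then 583 CPM in the Cp class (384 to 850 CPM) and 96.1 CPM in the H2-Ea-ps class (44.2 to 178 CPM), with no overlap. *Ogn*, the osteoglycin gene, overlapped in all comparisons, with medians of 53.9 to 130 CPM.

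*Postn* encodes periostin, a matricellular protein of activated fibroblasts. It overlapped in all 3 comparisons. Its medians were 27.3 CPM in the H2-Ea-ps class (4.69 to 67.0 CPM), 59.5 CPM in the Cp class (17.4 to 234 CPM) and 112 CPM in the neither class (50.6 to 176 CPM). It was the most variable member within the H2-Ea-ps and Cp classes, with coefficients of variation of 62.2% and 74.0%, and in the neither class only *Lum* (55.2%), *Acta2* (49.4%) and *Rgs5* (40.3%) exceeded its 39.4%.

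The wider fibroblast list, of matrix genes and mesenchymal regulators, held genes that were higher and genes that were lower in the Cp class. All 15 listed genes were above 1 CPM in at least 4 libraries, and 5 were higher and 3 lower in the Cp than in the H2-Ea-ps class without overlap, against 18.9% and 12.0% of all genes. Among the fibrillar collagen genes, *Col1a1* and *Col3a1* had their highest medians in the neither class, 1380 and 4232 CPM, against 763 and 670 CPM in the Cp class and 297 and 411 CPM in the H2-Ea-ps class. *Col1a2* was instead highest in the H2-Ea-ps class, at 1400 CPM, with 644 CPM in the neither class and 204 CPM in the Cp class, and the H2-Ea-ps class lay above both others without overlap. *Col6a3*, a chain of collagen VI, had medians of 52.2 CPM in the H2-Ea-ps class, 794 CPM in the Cp class and 923 CPM in the neither class. *Prrx1*, a transcription factor of mesenchymal cells, ran the other way, with 436 CPM in the H2-Ea-ps class (378 to 511 CPM), 175 CPM in the neither class (132 to 192 CPM) and 5.04 CPM in the Cp class (2.79 to 14.8 CPM), without overlap. The class with the most *Dcn* and *Lum* thus had the least *Prrx1*.

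*Acta2* and *Rgs5* stand for the contractile side. *Acta2* encodes smooth muscle α-actin, the usual mark of myofibroblasts and mural cells, and *Rgs5* a regulator of G-protein signalling found in pericytes. Of the 10 members, these 2 and *Postn* had the highest median likeness to the contractile gene list within classes (below), and their promoters are shown for that reason. Sequences are from RefSeq (GRCm38.p6), 250 bases before to 50 bases after the RefSeq start, in the direction of transcription, and 5 of the 10 members matched an entry. Capitals mark matches on either strand to TATAA or to a CArG box, the site of serum response factor in muscle genes, here allowing at most 1 G or C among the 6 core letters. The allowance was made after the strict box had no match in the members' promoters.
Acta2, chr19:34255324-34255623, minus strand: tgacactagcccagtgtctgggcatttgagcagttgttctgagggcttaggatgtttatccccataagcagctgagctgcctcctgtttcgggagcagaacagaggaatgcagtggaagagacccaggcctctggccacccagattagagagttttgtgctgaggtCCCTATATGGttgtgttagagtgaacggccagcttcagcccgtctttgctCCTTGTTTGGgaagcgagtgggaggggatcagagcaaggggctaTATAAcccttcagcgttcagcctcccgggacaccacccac
Postn, chr3:54360857-54361156, plus strand: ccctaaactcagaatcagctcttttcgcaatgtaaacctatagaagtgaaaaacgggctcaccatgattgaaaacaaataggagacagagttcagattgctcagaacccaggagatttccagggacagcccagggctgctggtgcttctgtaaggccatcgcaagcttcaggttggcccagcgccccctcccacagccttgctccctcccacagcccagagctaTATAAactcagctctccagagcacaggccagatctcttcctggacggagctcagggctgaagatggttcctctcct
Rgs5, chr1:169655251-169655550, plus strand: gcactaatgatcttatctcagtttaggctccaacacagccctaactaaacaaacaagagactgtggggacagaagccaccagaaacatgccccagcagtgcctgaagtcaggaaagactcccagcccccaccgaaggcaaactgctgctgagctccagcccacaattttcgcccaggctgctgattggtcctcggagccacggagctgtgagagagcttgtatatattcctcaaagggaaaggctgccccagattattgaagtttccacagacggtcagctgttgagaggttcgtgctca

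The *Acta2* window held 2 relaxed CArG boxes, starting 84 and 34 bases before the RefSeq start, and a TATAA starting 10 bases after it. The *Postn* window shown held a TATAA 26 bases before the start, and its second RefSeq start, the *Rgs5* window and the *Pdpn* window held none of these letters. Of all 32851 promoters of this length, 9.98% held the relaxed box, 1.63% the strict box, which is contained in the relaxed one, and 24.9% a TATAA. *Pdgfra* held a TATAA as well. These are matches of letters and were not tied to the levels.

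*Acta2* overlapped in all 3 comparisons and had its highest median in the Cp class. Its median was 42.8 CPM in the Cp class (18.3 to 72.2 CPM), 15.4 CPM in the H2-Ea-ps class (10.3 to 27.8 CPM) and 16.8 CPM in the neither class (10.3 to 47.2 CPM). In 10 of 12 libraries of the Cp class it was above every library of the H2-Ea-ps class. Its reads are little shared with other actins, as 0.352% of the 50-base words in its transcript also occurred in other genes, among them *Actg1*.

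*Rgs5* had its lowest median in the Cp class, 18.3 CPM (7.98 to 41 CPM), with 31.2 CPM in the H2-Ea-ps class (17.8 to 47.7 CPM) and 43.9 CPM in the neither class (21.1 to 83.8 CPM). All 3 pairs of classes overlapped. The order of medians for *Rgs5* was the reverse of that for *Pdgfrb* between the Cp and neither classes, although both mark pericytes.

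In each single comparison of classes, most pericyte genes beyond the members overlapped. Of 11 genes listed, 10 were above 1 CPM in at least 4 libraries. Between the Cp and H2-Ea-ps classes 1 of these 10 did not overlap, against 31.0% of all genes, and it was higher in the Cp class. Between the Cp and neither classes 1 was higher and 3 were lower in the Cp class, against 14.6% and 15.5% of all genes. The gene higher in the Cp class than in each of the others was *Notch3*, a receptor of mural cells. Its median was 253 CPM in the Cp class (164 to 335 CPM) against 5.50 CPM (3.43 to 10.4 CPM) and 8.70 CPM (6.17 to 15.0 CPM) in the H2-Ea-ps and neither classes. *Cspg4*, the gene of the NG2 proteoglycan, was instead high in the neither class, at 35 CPM (24.4 to 52.7 CPM), against 3.88 CPM in the H2-Ea-ps class and 3.32 CPM in the Cp class. *Abcc9* and *Kcnj8*, which encode the subunits of a pericyte potassium channel and were singled out after their values were seen, were lower in the Cp than in the neither class without overlap. Their Cp medians were 4.29 and 1.30 CPM and their neither medians 15.8 and 4.52 CPM. *Mcam* and *Anpep*, 2 surface proteins of mural cells, overlapped in all comparisons.

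**Figure D2:**
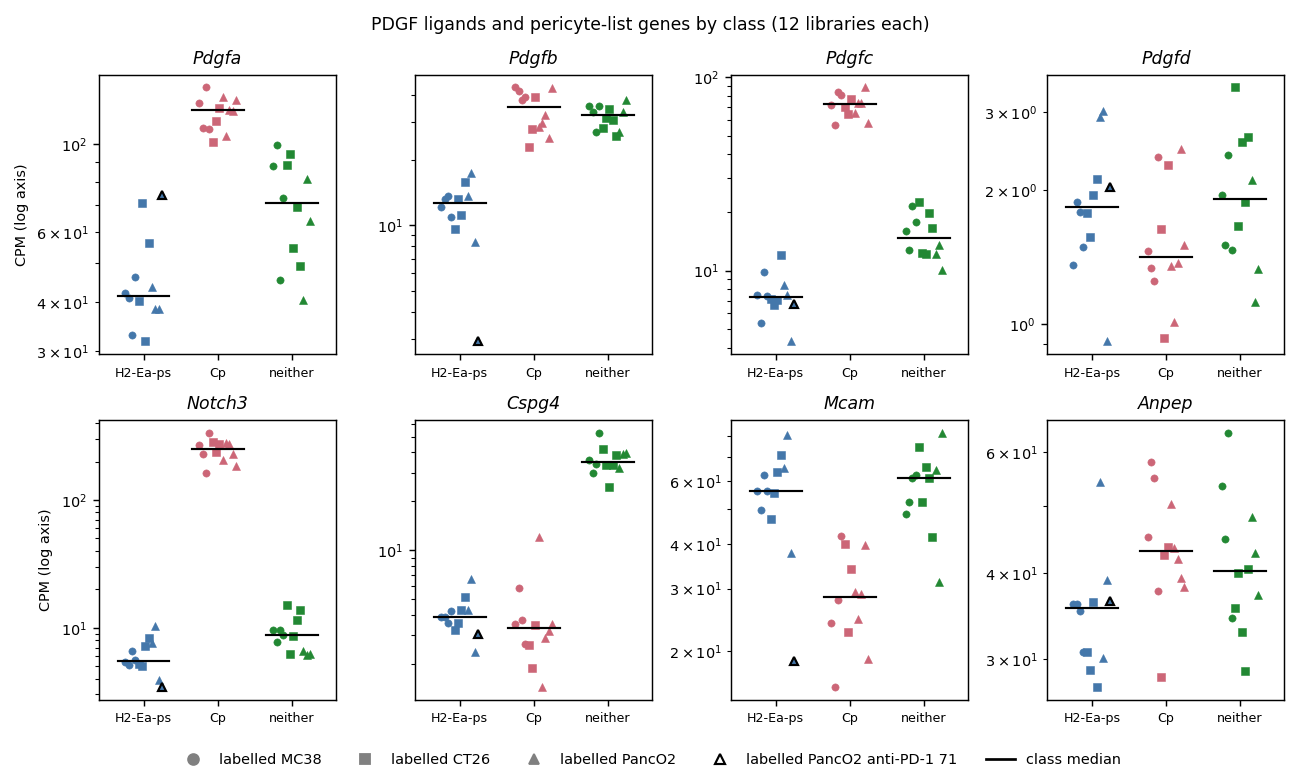
Level of the 4 PDGF ligands (top) and of 4 genes of the pericyte list (bottom) in every library (CPM, log axis), by class, with 12 libraries in each class, shapes and lines as in the plot of the members. *Notch3* stands alone in the Cp class at 164 to 335 CPM and *Cspg4* in the neither class at 24.4 to 52.7 CPM.

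*Pdpn*, which encodes podoplanin, a surface glycoprotein of fibroblasts and lymphatic endothelium, had a median of 14.2 CPM in the Cp class (6.34 to 32.3 CPM). It was 74.0 CPM in the H2-Ea-ps class (56.5 to 107 CPM) and 125 CPM in the neither class (86.6 to 260 CPM). The Cp class lay below both others without overlap, 5.20-fold and 8.77-fold by medians.

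*Thy1*, which encodes the glycoprotein CD90 of fibroblasts and also of T cells, had its highest median in the H2-Ea-ps class. It was 37.8 CPM there (27 to 51.4 CPM), 25.5 CPM in the Cp class (16.4 to 37.2 CPM) and 17.7 CPM in the neither class (9.86 to 30.9 CPM), and 11 of 12 libraries of the neither class were below all of the H2-Ea-ps class. The T cell list summed to 18.8 to 48.5 CPM in the H2-Ea-ps class, 49.5 to 158 CPM in the Cp class and 6.14 to 96.9 CPM in the neither class. Within the Cp class *Thy1* and this list had r = 0.76, which missed the threshold over 300 relations (rho = 0.76, permutation p = 0.00398, adjusted p = 0.0715, r = 0.82 without 2 libraries). In the neither class r was 0.68 (permutation p = 0.015, adjusted p = 0.125, r = 0.43 without 2 libraries) and in the H2-Ea-ps class 0.27 (permutation p = 0.419). The part of T cells in the level of *Thy1* was not tested.

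*Fap*, the fibroblast activation protease, was the lowest member per kilobase of exon in all 3 classes. Its medians were 2.93 CPM in the H2-Ea-ps class (1.67 to 6.40 CPM), 1.94 CPM in the Cp class (1.40 to 2.43 CPM) and 3.82 CPM in the neither class (2.41 to 5.55 CPM). The Cp and neither classes touched by a single pair of libraries, and with library sizes scaled by TMM they did not overlap. *Fap* had 28 to 178 reads per library, the fewest of the members.

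Per kilobase of exon, the order of the members' medians also differed. In the Cp class *Dcn* led with 396 CPM per kb, followed by *Pdgfrb* with 74.0 and *Lum* with 50.5 CPM per kb. In the neither class *Dcn* led with 136 CPM per kb and *Pdpn* was second with 68.8 CPM per kb. In the H2-Ea-ps class *Pdpn* was first with 40.7 CPM per kb, above *Dcn* with 31.3 CPM per kb and *Thy1* with 12.6 CPM per kb.

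Summed up as a share of variance, the classes held most of the spread of some members and under 50% of that of others. On the log2(CPM + 1) scale, the share between classes was 95.1% for *Dcn*, 93.3% for *Pdgfra*, 92.9% for *Pdgfrb*, 87.8% for *Pdpn* and 85.6% for *Lum*. It was 59.5% for *Acta2*, 58.4% for *Thy1*, 49.1% for *Fap*, 46.7% for *Postn* and 39.5% for *Rgs5*. The median over the members was 72.5%, against 64.6% over all 15217 genes. The median share was 88.1% in the wider fibroblast list, 76.6% in the proteoglycan list, 76.1% for the PDGF ligands and 70% in the pericyte list. It was 61.9% in the inflammatory list, 24.5% in the endothelial list and 22.7% in the contractile list. Within the contractile list, *Mylk*, *Tpm2*, *Tpm1* and *Cnn2* had shares of 84.2% to 94.8%. Of its 11 genes kept, 4 were higher and 0 lower in the Cp than in the H2-Ea-ps class without overlap (18.9% and 12.0% of all genes).

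**Figure D3:**
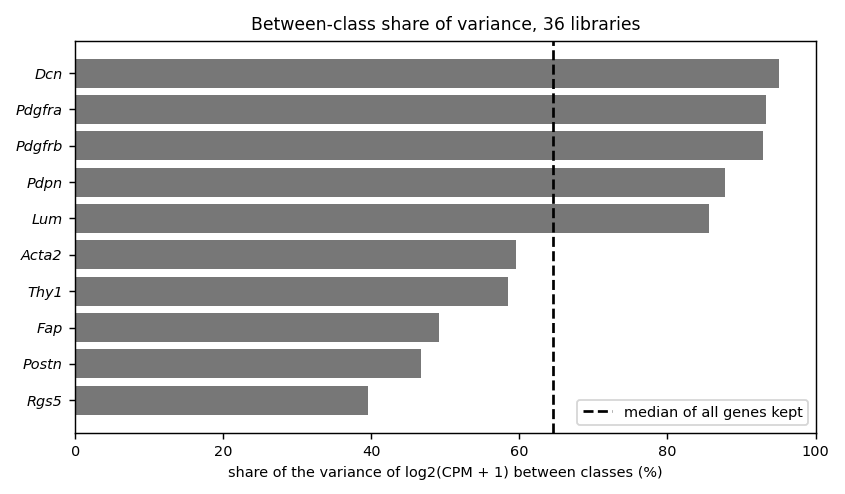
Share of the variance of log2(CPM + 1) over 36 libraries that lay between the 3 classes (%), one bar per marker, with the median of all 15217 genes as a dashed line. Shares run from 39.5% for *Rgs5* to 95.1% for *Dcn*, and 5 of the 10 markers lie above 80%, as do 4492 of all 15217 genes.

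Genes of other cell types also differed by class, and their part in the markers' levels was not tested. The epithelial list summed to 579 to 1188 CPM in the Cp class, 64.8 to 431 CPM in the neither class and 8.97 to 43.8 CPM in the H2-Ea-ps class. The macrophage list summed to 1075 to 1934 CPM in the Cp class, 1366 to 2067 CPM in the neither class and 576 to 1178 CPM in the H2-Ea-ps class. The endothelial list overlapped between classes, with 88.0 to 210 CPM in the Cp class, 123 to 230 CPM in the neither class and 113 to 249 CPM in the H2-Ea-ps class, and none of its 8 genes separated any pair of classes. The lymphatic endothelial list, of cells that also carry podoplanin, overlapped between classes, with 4.15 to 29.6 CPM in the H2-Ea-ps class, 4.81 to 12.8 CPM in the Cp class and 7.35 to 48.5 CPM in the neither class. Of its genes, *Prox1* had a median of 0 CPM in every class, *Flt4* medians of 5.11 to 7.96 CPM, and *Lyve1* medians of 5.43, 0.899 and 5.17 CPM in the H2-Ea-ps, Cp and neither classes.

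Within a class, where the class difference is removed, a few pairs of markers moved together from library to library. Pearson correlations of log2 CPM were tested by permuting libraries, with adjustment over the pairs of all 3 classes together and leaving PancO2 anti-PD-1 71 out. Of 45 pairs per class, 3 were called in the H2-Ea-ps class (n = 11 libraries), 2 in the Cp class (n = 12) and 2 in the neither class (n = 12), all positive and all still positive without the 2 libraries farthest from the median of the first gene. By Spearman's rho 4, 4 and 2 pairs were called, among them a negative pair, *Pdgfra* against *Pdpn* in the Cp class. For Pearson's r an unadjusted p under 0.05 was found in 12, 10 and 7 pairs. How many pairs of arbitrary genes would be called was not computed, so these counts have no background share. As a description, r averaged over the 3 classes had a median with the other members of 0.01 (*Pdgfrb*) to 0.35 (*Fap*). Over all genes the medians for these 2 members were 0.03 and 0.10. Only *Pdgfrb* had a lower median with the members than with all genes. Leaving out 1 library at a time gave 0 to 4, 1 to 4 and 1 to 2 called pairs, and not all of them were positive, as *Pdgfrb* and *Rgs5* were called against *Pdpn* in the H2-Ea-ps class without CT26 anti-CTLA4 34 and without PancO2 IgG 54, respectively, and *Pdgfra* against *Pdpn* in the Cp class without CT26 anti-CTLA4 36.

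The PDGF receptors moved together in 2 of the classes. *Pdgfra* and *Pdgfrb* had r = 0.94 in the Cp class (rho = 0.96, permutation p = 2e-05, adjusted p = 0.0027, r = 0.90 without 2 libraries) and r = 0.85 in the H2-Ea-ps class (rho = 0.82, permutation p = 0.00084, adjusted p = 0.0283, r = 0.71 without 2 libraries). In the neither class r was -0.48 (permutation p = 0.116, adjusted p = 0.309). The pair stayed called in all 12 fits that left out 1 library of the Cp class and in 9 of 11 in the H2-Ea-ps class, being lost there without PancO2 anti-CTLA4 62 or PancO2 anti-PD-1 64. The difference between classes was not tested. The mean r of *Pdgfrb* with the other 9 members in the neither class was -0.38, and 1 of 9 coefficients was positive.

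*Postn* moved with *Fap* in the H2-Ea-ps class (r = 0.83, rho = 0.89, permutation p = 0.00208, adjusted p = 0.0451, r = 0.77 without 2 libraries) and in the neither class (r = 0.88, rho = 0.78, permutation p = 0.00027, adjusted p = 0.0121, r = 0.81 without 2 libraries). In the Cp class, where *Fap* spanned only 1.40 to 2.43 CPM, r was -0.11 (permutation p = 0.731). *Postn* also moved with *Lum* in the H2-Ea-ps class (r = 0.92, rho = 0.88, permutation p = 0.00012, adjusted p = 0.0081, r = 0.84 without 2 libraries). The corresponding r was -0.02 in each of the other classes. With 1 library left out, *Postn* and *Fap* stayed called in 12 of 12 fits in the neither class but in 3 of 11 in the H2-Ea-ps class, and *Postn* and *Lum* in 10 of 11.

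The remaining called pairs, 1 in the Cp class and 1 in the neither class, joined *Dcn* with different partners. In the Cp class it was *Pdgfra* (r = 0.80, rho = 0.66, permutation p = 0.00234, adjusted p = 0.0451, r = 0.68 without 2 libraries). In the neither class it was *Pdpn* (r = 0.81, rho = 0.84, permutation p = 0.00172, adjusted p = 0.0451, r = 0.61 without 2 libraries). *Pdpn* and *Pdgfra* had r = -0.77 in the Cp class, which missed the threshold (permutation p = 0.00472, adjusted p = 0.064). By Spearman's rho this pair passed it (rho = -0.82, permutation p = 0.00169, adjusted p = 0.0347), while *Dcn* with *Pdgfra* did not (adjusted p = 0.206). *Lum* with *Pdgfra* and with *Pdgfrb* also passed by rho in that class (rho = 0.85 and 0.78, permutation test, adjusted p = 0.0307 and 0.0499). With library sizes scaled by TMM this negative pair was called (r = -0.80, permutation p = 0.00232, adjusted p = 0.0447) and *Dcn* with *Pdgfra* was not. With 1 library left out, *Dcn* stayed called with *Pdgfra* in 2 of 12 fits and with *Pdpn* in 4 of 12. *Dcn* and *Lum*, the neighbours on chromosome 10, had r = -0.08, 0.60 and -0.32 in the H2-Ea-ps, Cp and neither classes, none of them called.

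**Figure D4:**
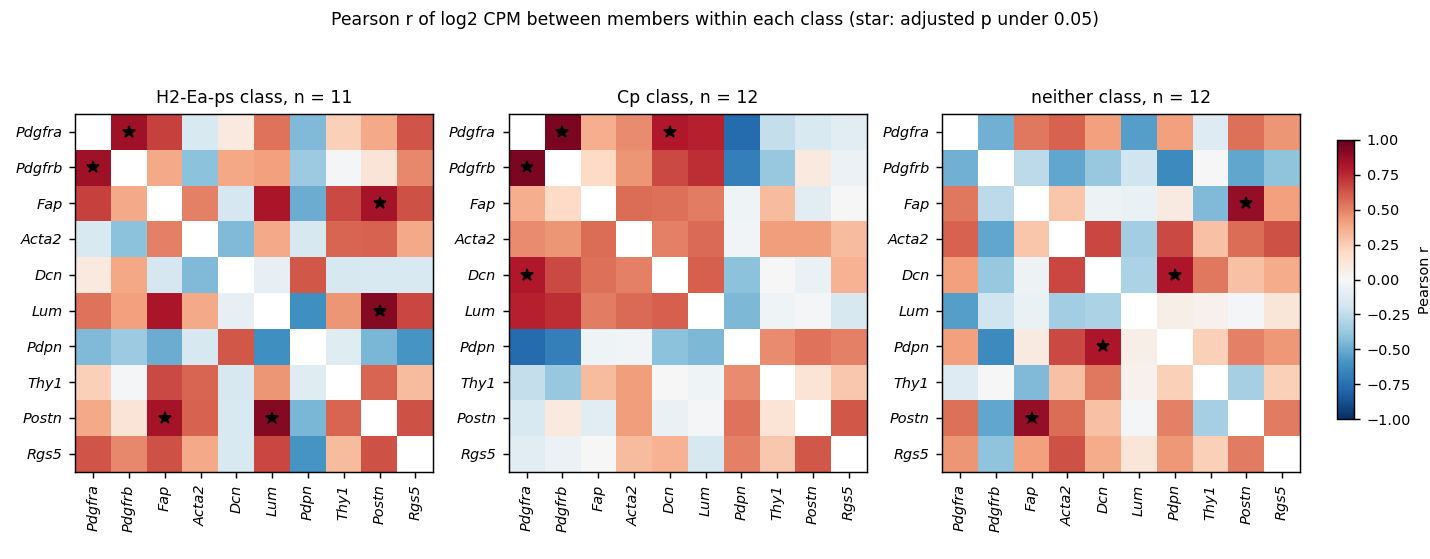
Pearson r of log2 CPM between every pair of the 10 markers within the H2-Ea-ps class (n = 11), the Cp class (n = 12) and the neither class (n = 12), in colour from -1 to 1, with stars at adjusted p under 0.05. *Pdgfra* with *Pdgfrb* is dark red at left and centre (r = 0.85 and 0.94) and blue at right (r = -0.48).

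Single libraries weighed on these pairs. In the H2-Ea-ps class the library labelled PancO2 anti-CTLA4 62 had the highest level of 6 of 10 members, *Pdgfra*, *Pdgfrb*, *Fap*, *Lum*, *Thy1* and *Rgs5*, and that labelled PancO2 anti-PD-1 64 the lowest of 5, *Pdgfra*, *Fap*, *Lum*, *Postn* and *Rgs5*. *Lum* was 25 CPM in the former and 2.05 CPM in the latter, whereas *Pdpn* was highest in the latter, at 107 CPM. Without PancO2 anti-PD-1 64, 0 pairs were called in this class by Pearson's r (9 with an unadjusted p under 0.05) and 0 by Spearman's rho. The library labelled PancO2 anti-CTLA4 62 also had the highest sums of the endothelial (249 CPM), skeletal muscle (251 CPM) and adipocyte (50 CPM) lists in the class.

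In the Cp class the library labelled PancO2 IgG 48 had the highest *Acta2*, *Pdpn*, *Thy1* and *Postn*, and its keratinocyte list summed to 547 CPM, the highest of the class. In the neither class the library labelled CT26 IgG 24 had the highest *Acta2*, *Pdpn* and *Rgs5*, and the highest endothelial sum of the class, 230 CPM. The part of these other cells in the members' levels was not tested.

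The genes most like each member were ranked by the mean of the 3 within-class coefficients over 11681 other genes, as a description. *Rgs5* was nearest to *Ednra*, the endothelin A receptor of mural cells, with a mean r of 0.89 (0.86 to 0.93 over the classes). *Postn* was nearest to *Col5a2*, a collagen V chain, with a mean r of 0.87, and *Lum* to *Col15a1*, a basement membrane collagen, with 0.77. *Pdgfra* was nearest to *Piezo2*, a mechanically gated channel, with 0.91. *Acta2* had *Col3a1* among its nearest 5 genes, with 0.74.

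Members without a matrix gene beside them included *Pdpn*, nearest to *Rgs16* with a mean r of 0.83 and, at the third rank, to the chemokine gene *Cxcl2* with 0.81. *Pdgfrb* was nearest to *Zhx1*, a zinc-finger gene, with 0.83, *Fap* to *Bcam* with 0.84, *Thy1* to *Sema4a* with 0.80 and *Dcn* to *Tmem150a* with 0.70. Among the nearest 5 genes of *Lum* were *Trdn* and *Casq1*, of the calcium store of skeletal muscle, with 0.76 and 0.73. In the H2-Ea-ps class *Lum* and the skeletal muscle list had r = 0.91 (permutation p = 0.00142, adjusted p = 0.0522 over 300 relations), which fell to 0.41 without 2 libraries.

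The contractile list lay nearest to *Rgs5*, *Postn* and *Acta2*, with median mean r of 0.50, 0.48 and 0.47 over the 9 of 12 listed genes that could be ranked. Over all 11681 genes the medians for these members were 0.04, 0.06 and 0.09. *Tagln*, the transgelin gene, had a mean r of 0.60, 0.71 and 0.68 with them. For the wider fibroblast list, with 14 of 15 genes ranked, the highest medians were 0.45 with *Postn*, 0.40 with *Lum* and 0.39 with *Pdgfra*. Over all genes these members had medians of 0.06, 0.09 and 0.06. Its lowest medians were 0.01 with *Pdpn* and 0.13 with *Pdgfrb*, against -0.01 and 0.03 over all genes. The pericyte list had a median mean r of 0.44 with *Rgs5* and 0.41 with *Pdgfra* and *Fap*, over 7 ranked genes, against 0.04, 0.06 and 0.10 over all genes. *Kcnj8* and *Abcc9* were the nearest of these to *Rgs5*, with 0.65 and 0.60. *Notch3* was nearest to *Pdgfra*, with 0.76. The inflammatory list was nearest to *Pdpn*, with a median of 0.41 against -0.01 over all genes, led by the cytokine gene *Lif* with 0.70 and the chemokine gene *Ccl2* with 0.65.

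Members were also set against 10 lists of other cells and processes within classes, 300 relations in all, of which 7 were called. *Rgs5* followed the endothelial list in the H2-Ea-ps class (r = 0.88, rho = 0.90, permutation p = 5e-05, adjusted p = 0.015, r = 0.78 without 2 libraries), and *Pdgfrb* did so in the Cp class (r = 0.87, rho = 0.92, permutation p = 0.00037, adjusted p = 0.041, r = 0.78 without 2 libraries). *Rgs5* and *Postn* followed the adipocyte list in the H2-Ea-ps class with r = 0.84 and 0.87 (permutation p = 0.00065 and 0.00082, adjusted p = 0.041 for both), but 1 of its 6 genes was above 1 CPM in at least 4 libraries. By Spearman's rho 0 of the 30 relations with the adipocyte list were called.

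Against the proliferation list, *Acta2* and *Dcn* ran in the opposite direction in the neither class (r = -0.84 and -0.85, rho = -0.92 and -0.71, permutation p = 0.00082 and 0.00053, adjusted p = 0.041 for both, r = -0.88 and -0.58 without 2 libraries). *Acta2* ran against the epithelial list in the Cp class (r = -0.78, permutation p = 0.00098, adjusted p = 0.042, r = -0.49 without 2 libraries). Of 90 relations with library total, mitochondrial share and unassigned share, 1 was called. That was *Acta2* with the unassigned share in the H2-Ea-ps class (r = -0.88, permutation p = 0.00015, adjusted p = 0.0135). An unadjusted p under 0.05 was found in 7 of the 90. Of these, 5 joined the mitochondrial share in the Cp class with *Pdgfra*, *Dcn*, *Lum*, *Acta2* and *Pdgfrb* (r = 0.60 to 0.70). The part of the mitochondrial share in the pairs of members in that class was not tested.

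The labels imply comparisons of the 3 models under IgG and of each antibody with IgG within each model. edgeR's quasi-likelihood test called 0 genes in each of the 9 comparisons, which is 0% of the genes tested, and 0 of the 10 members. An unadjusted p under 0.05 was found for 25 to 912 genes per comparison. DESeq2 called 0 to 2 genes and limma-voom 0. Of the members, *Postn* was the only one with an unadjusted p under 0.05. It was so in 2 comparisons that share the libraries labelled MC38 IgG.

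In the libraries labelled MC38 IgG, *Postn* was 13.1, 25.9, 42.6 and 50.6 CPM (33.0 ± 16.8 CPM, SD, n = 4). Under the CT26 IgG label it was 43.1, 56.6, 119 and 166 CPM (96.0 ± 56.9 CPM), and under PancO2 IgG 43.8, 56.1, 74.4 and 234 CPM (102 ± 88.6 CPM). The ranges overlapped. The log2 fold change was 1.58 ± 0.60 (SE) for PancO2 against MC38 (unadjusted p = 0.0234, adjusted p = 1, edgeR) and 1.53 ± 0.60 for CT26 against MC38 (unadjusted p = 0.0273, adjusted p = 1, edgeR). Within each of these 3 groups the lowest library was of the H2-Ea-ps class, where *Postn* had its lowest median.

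**Figure D5:**
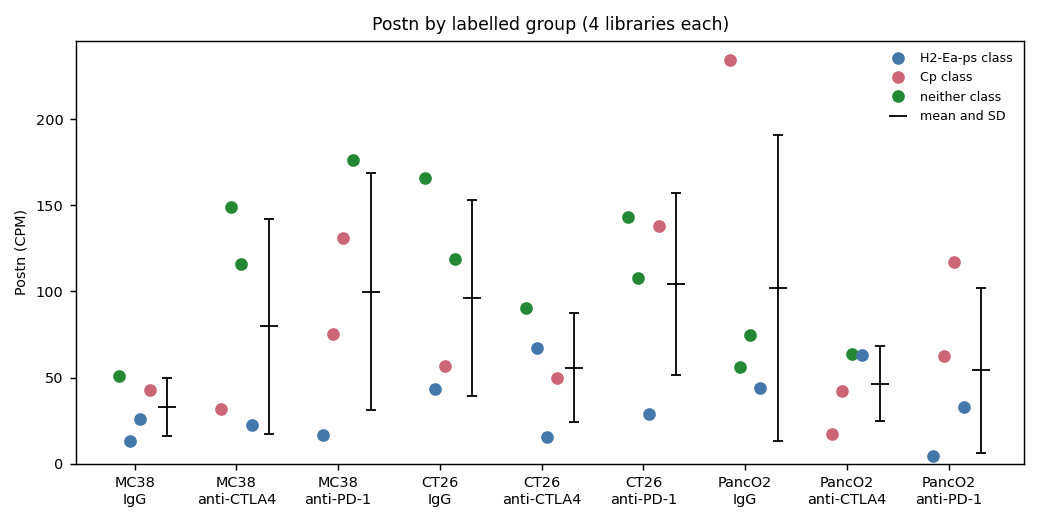
*Postn* in each of the 4 libraries of the 9 labelled groups (CPM), coloured by class, with the mean and SD of each group beside the points. The group labelled MC38 IgG lies between 13.1 and 50.6 CPM and overlaps all others, and the highest library, at 234 CPM, is labelled PancO2 IgG.

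Under the antibody labels the members' log2 fold changes against IgG ran from -1.28 to 1.57, with standard errors of 0.31 to 1.33. The smallest unadjusted p was 0.0576, for *Postn* with anti-PD-1 in MC38. With errors of this size the labelled groups, each of which mixes 2 or 3 classes, showed no detectable difference in any member. As 16 labels went against the strain gene, these are comparisons between labels.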

How the data were processed

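Whole subcutaneous tumours were profiled by poly-A mRNA sequencing, 1 library per mouse. Per the labels and the study's methods, the authors mapped reads to mm10 with TopHat and Bowtie2 after FastQC 0.11.5 and deposited raw read counts per Ensembl gene from HTSeq 07.2, with no normalization or pooling. Libraries were made with a stranded kit (KAPA). The strand setting of HTSeq and the Ensembl release are not given in the sources used here, so counts of overlapping genes are uncertain. The 5 summary lines of HTSeq (44.8% to 63.4% of reads, 86.5% in PancO2 anti-PD-1 71) were left out of totals and tests.

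CPM was computed from the deposited counts, over 7883106 to 41751023 reads per library, and each library held at least 28 reads of every member. Symbols were found for 32608 of 37417 identifiers. Coordinates and exon lengths are from GENCODE (GRCm38) and promoters from RefSeq. Labelled groups were compared with edgeR 4.0.16 (R 4.3.3; filterByExpr, TMM, robust glmQLFit, glmQLFTest, Benjamini-Hochberg adjustment, two-sided), on the 12 libraries of 1 antibody or 1 model. The study's methods name limma, so limma-voom (limma 3.58.1) was an alternative, as was DESeq2 1.42.0. The steps were tested on simulated data. For correlations, CPM was taken to log2 after adding a prior count of 2 (scaled to library size), and libraries were permuted 100000 times, two-sided, giving a smallest possible p of 1e-05 (numpy 2.4.6 and pandas 2.3.3 under Python 3.11.15). The level of a list was the log2 of its summed CPM plus 0.1. Figures were drawn with matplotlib 3.10.9.

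The members, the gene lists, the classes and the rule for named genes were chosen with earlier results of these data known. Named were the 10 members, the 2 class genes, up to 4 genes of each list (the 2 highest by median CPM and the 2 with the largest share of variance between classes), the 5 protein-coding genes nearest to each member, and close relatives of *Acta2*. Genes of lists that were named for their likeness to a member (*Pdgfd*, *Tagln*, *Abcc9*, *Kcnj8*, *Lif*) or to complete a description (*Prox1*, fibrillar collagen genes) were chosen after their values were seen.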

Additional observations from a re-analysis of the deposited data

Results flagged for a closer look

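Within each labelled group of 4 libraries, each member was examined for a library whose gap to its nearest neighbour exceeded Dixon's 95% critical value of 0.829 of the group's range. Of 90 sets, 11 did so. About 1 in 20, or 4.5, would do so if the sets were independent and each came from a single normal distribution. The labelled groups mix classes and the sets share libraries, so the count was not tested against chance. *Lum* accounted for 4 of the 11 sets, each with a single library of the Cp class among libraries of other classes. These were 178.6 CPM against 12.1 CPM for the next in MC38 IgG 7, 78.47 against 12.9 CPM in MC38 anti-CTLA4 8, 184.2 against 15.7 CPM in CT26 IgG 28 and 134.6 against 23.6 CPM in PancO2 IgG 48.

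Another 3 were likewise the only library of the Cp or the H2-Ea-ps class in their group and fell on that class's side of the others. *Acta2* was 38.9 CPM in MC38 IgG 7 (next 16.8 CPM), *Pdgfrb* 74.5 CPM in MC38 anti-CTLA4 14, the lowest of its group (next 251 CPM), and *Thy1* 47.3 CPM in CT26 IgG 27 (next 20.3 CPM). *Postn* reached 234 CPM in PancO2 IgG 48 (next 74.4 CPM), the library with the highest keratinocyte sum, 547 CPM.

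*Fap* was 6.40 CPM in PancO2 anti-CTLA4 62 (next 2.74 CPM), the highest of all 36 libraries. *Rgs5* was 83.8 CPM in CT26 IgG 24 (next 26.8 CPM), also the highest of all. *Acta2* was 27.8 CPM in CT26 anti-CTLA4 34 (next 18.3 CPM), the latter value being that of the only library of the Cp class in that group. No member had antibody effects of opposite sign in 2 models in every library, in 20 sets examined.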

How the results depend on the processing

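No paired analysis was possible because each mouse number in the labels belongs to 1 library. In the label comparisons, with 0 genes called, leaving out single libraries gave 0 to 0 calls in each, and the settings not named here gave 0. The DESeq2 Wald test gave 1 call for PancO2 against MC38 and for CT26 against MC38 under IgG, and 2 for PancO2 anti-PD-1 and PancO2 anti-CTLA4 against IgG. One fit of all 36 libraries gave 49 for PancO2 anti-PD-1 against IgG, and 0 once PancO2 anti-PD-1 71 was left out. A class term in the fit of 35 libraries, added after the data were seen, gave 2 for CT26 anti-CTLA4 against IgG. None of these calls was a member. *Postn* kept its direction in all 18 alternatives of both IgG comparisons, at log2 fold changes of 0.82 to 1.86 (adjusted p 0.94 to 1) for PancO2 and 1.14 to 1.80 (adjusted p 0.931 to 1) for CT26 against MC38.

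Called pairs of members moved from 3 to between 0 and 4 in the H2-Ea-ps class when 1 library was left out, from 2 to between 1 and 4 in the Cp class and from 2 to between 1 and 2 in the neither class. In the H2-Ea-ps class all 3 were lost without mouse 64, *Pdgfra* with *Pdgfrb* also without 62, and *Fap* with *Postn* also without 3, 14, 16, 27, 34, 42 or 54. In the Cp class *Pdgfra* with *Dcn* was lost without any library but 7 and 68, and 4 pairs were called without 68. In the neither class *Dcn* with *Pdpn* was lost without 10, 11, 19, 24, 32, 49, 51 or 61. With the library labelled PancO2 anti-PD-1 71 included, the H2-Ea-ps class had 2 called pairs (2 in place of 4 by rho), losing *Pdgfra* with *Pdgfrb*, and the Cp class had 1, as the adjustment covers all classes. TMM scaling left the counts at 3, 2 and 2, but in the Cp class 1 of the 2 was negative. All class medians stayed within 1 SD under TMM scaling (ratios 0.928 to 1.07), without mitochondrial genes (1.03 to 1.11) and without single libraries (0.859 to 1.14), and all 30 fold changes between classes kept their sign under both scalings. Depth limits *Fap* most, with 28 to 178 reads per library.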
